A study of Mus musculus with 4 samples.

Results

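The 14-3-3 genes Ywhab, Ywhae, Ywhag, Ywhah, Ywhaq, Ywhaz and Sfn were followed in B16F10 mouse melanoma cells after knockdown of Lmna, which encodes the A-type lamins of the nuclear lamina. The family was chosen by 1 measured value, the strong fall of Ywhaq in the knockdown cells, so the level of Ywhaq is given below as a description with no test, and the other 6 genes entered as its paralogs whatever their values. All 7 symbols were among the 24421 rows of the deposited count matrix, and all 7 passed the filter on low counts that left 9150 genes for testing.

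The control libraries, shControl 1 and 2, were made from cells transduced with a lentiviral vector that the study lists as empty, and the knockdown libraries, shLmna 1 and 2, from cells transduced with a vector for a short hairpin RNA against Lmna. Both groups were B16F10, a C57BL/6 melanoma line grown with 10% FBS, and were selected with puromycin, so all 4 libraries come from 1 cell line. Any effect of the hairpin beyond Lmna, general or particular to its sequence, is part of the contrast. RNA was profiled by bulk MARS-seq, which reads the 3′ end of poly(A) transcripts. No source says that replicate libraries derive from separate cultures or transductions, so errors and p-values measure the spread between libraries, which may be technical. With 2 libraries a group, the edgeR fit also draws the spread of each gene toward that of the other tested genes.

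14-3-3 proteins are small acidic proteins that pair into homodimers and heterodimers and bind other proteins at phosphorylated serine or threonine. Binding holds many of these client proteins in the cytoplasm, shields their phosphate or changes their activity, and clients include CDC25 phosphatases, FOXO factors, BAD and YAP. Of the mammalian isoforms, beta (Ywhab), epsilon (Ywhae), gamma (Ywhag), eta (Ywhah), theta (Ywhaq, also called tau) and zeta (Ywhaz) are made in most tissues, whereas sigma (Sfn) is mainly epithelial, is a p53 target and forms mostly homodimers.

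The 7 proteins are close to one another in sequence. Over the 21 pairs of proteins translated from the annotated transcripts, identity ran from 60.1% between Ywhae and Sfn to 87.0% between Ywhag and Ywhah, with 86.9% between Ywhab and Ywhaz. Ywhaq, of 245 residues, was nearest to Ywhab at 81.1% and to Ywhaz at 79.6%, and farthest from Ywhae at 64.5%. The coding sequence of the conserved C-terminal signature is shown because it is where the paralogs are the same protein from different letters: its 18 residues are identical in all 7, and capitals mark each base that differs from Ywhaq, which is itself all in lower case.
Ywhaq: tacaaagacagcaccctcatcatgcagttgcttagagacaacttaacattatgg
Ywhaz: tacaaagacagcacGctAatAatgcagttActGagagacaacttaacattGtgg
Sfn: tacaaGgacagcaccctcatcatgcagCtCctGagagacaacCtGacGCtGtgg
Ywhab: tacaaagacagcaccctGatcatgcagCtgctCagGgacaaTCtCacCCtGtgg
Ywhah: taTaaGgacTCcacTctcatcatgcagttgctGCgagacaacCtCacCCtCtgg
Ywhag: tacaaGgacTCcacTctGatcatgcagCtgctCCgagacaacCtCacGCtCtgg
Ywhae: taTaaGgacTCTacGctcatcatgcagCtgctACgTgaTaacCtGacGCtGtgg

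Across these 54 bases the number that differed from Ywhaq was 6 in Ywhaz, 9 in Sfn, 10 in Ywhab, 12 in Ywhah, 13 in Ywhag and 16 in Ywhae. On GRCm38, the build also called mm10, the windows lie at chr12:21391410-21395012 on the minus strand for Ywhaq, chr15:36772772-36775286 (minus) for Ywhaz and chr2:164016151-164016674 (plus) for Ywhab, and each of these 3 spans an intron. The others lie within 1 exon, at chr4:133601080-133601133 (minus) for Sfn, chr5:33027100-33027153 (plus) for Ywhah, chr5:135911040-135911093 (minus) for Ywhag and chr11:75759353-75759406 (plus) for Ywhae.

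Reads were counted over the last 1000 transcript bases of a gene, so it mattered whether these 3′ ends can be told apart. In each member the window lay in 1 exon and was overlapped by no other annotated gene, and it was 3′ UTR throughout except in Ywhah (771 bases of 3′ UTR) and Sfn (467 bases), where the rest was coding. No stretch of 31 bases in the windows of Ywhaq, Ywhae and Ywhag occurred in another gene, and no 2 members shared such a stretch. The share of stretches found in other genes was 0.722% for Ywhaz, 1.24% for Ywhab, 14.1% for Ywhah, all with the processed pseudogene Gm12428, and 33.7% for Sfn, with many genes that include the pseudogene Ywhaq-ps1, so the counts of Ywhah and Sfn are less certain. Since the counted window has the same length at each 3′ end, CPM was compared between genes without division by transcript length. Ywhaz has 2 annotated RefSeq 3′ ends and each other member 1. Only 1 transcript of each gene was examined here, so comparisons of the level of Ywhaz with other members are less certain.

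The libraries held 2494880 to 3808843 counts. Lmna itself was counted 2826 and 2684 times in shControl and 331 and 480 times in shLmna, a log2 fold change of -2.61 ± 0.142 (SE), in the direction of the labels (edgeR quasi-likelihood test, adjusted p = 7.93e-06). Of 9 melanocyte markers, 8 exceeded 10 CPM in all libraries, and their summed level was 21691 and 20818 CPM in shControl 1 and 2 and 22032 and 25596 CPM in shLmna 1 and 2. The markers did not all move alike: Sox10, a neural crest transcription factor gene, stood at 1574 and 1851 CPM in shControl and fell to 843 and 1002 CPM in shLmna (log2 fold change -0.89, adjusted p = 0.00161). None of 12 markers of immune, endothelial, epithelial and fibroblast cells reached 10 CPM in all libraries, 5 were at 0 in each, and their summed level was 11.2 to 14.9 CPM in shControl and 3.16 to 7.36 CPM in shLmna.

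Knockdown of Lmna was accompanied by a 15.3-fold lower level of Ywhaq and a lower level of Ywhae and Ywhah, while Ywhaz rose and Ywhab stayed within the spread of its libraries. Ywhaq is left out of the counts that follow, since its fall chose the family. Of the other 6 members, 2 were lower (Ywhae and Ywhah) and 1 was higher (Ywhaz) at an adjusted p under 0.05, where 9.74% and 5.48% of all 9150 tested genes passed in these directions. By the 3 limits of the study (adjusted p under 0.05, log2 fold change beyond 1 and mean normalized count over 5), Ywhah was called lower, against 5.88% of all genes. None of the 6 exceeded the fold limit upward, where 1.76% of all genes were called higher, and the highest was Ywhaz at 0.82. The groups did not overlap for 5 of the 6, but neither did they for 60.1% of all genes. The contrast is the one by which the family was chosen, so nothing is read from these counts beside their background.

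**Figure D1:**
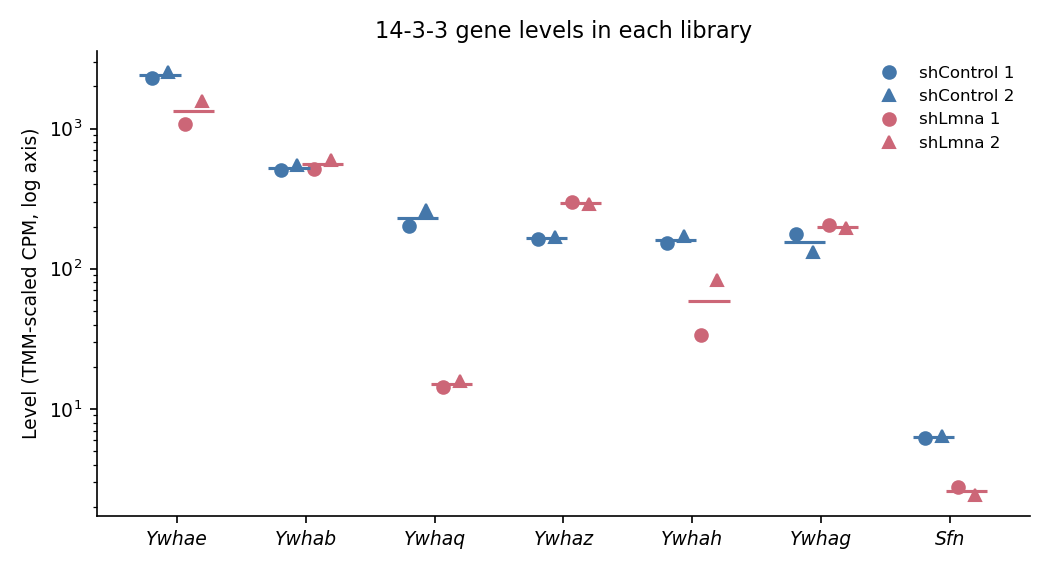
Level of each 14-3-3 gene (TMM-scaled CPM, log axis) in the 4 libraries, with circles for replicate 1, triangles for replicate 2 and horizontal lines at the mean of each group. Ywhaq sits at 202 and 261 CPM in shControl and at 14.2 and 15.8 CPM in shLmna, Ywhaz lies higher in both shLmna libraries, and the Ywhab libraries overlap.

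Ywhaq, the theta isoform, lies at chr12:21390071-21417637 on the minus strand and has 5 exons. It was counted 651 and 976 times in the shControl libraries, or 202 and 261 CPM, and 36 and 58 times in the shLmna libraries, or 14.2 and 15.8 CPM. Both shLmna libraries were thus low and near each other, far under either shControl library. The mean level was 231 ± 42.2 CPM in shControl and 15.0 ± 1.11 CPM in shLmna (SD, n = 2), a change of -93.5%. The log2 fold change was -3.93 ± 0.188 (SE), the value at rank 151 from the lowest among the 9150 tested genes. In the values that the authors corrected for batch the difference was -1.51. Those values span a narrower range than the log2 of the counts, with low counts lifted. In shControl 1, Sfn with 20 counts stood at 7.54 there and Ywhae with 7452 counts at 12.8. Differences in them are therefore not on the scale of the edgeR log2 fold changes. The counts cover the RefSeq 3′ end, and a change in use of the farther GENCODE 3′ end of Ywhaq was not tested. Bulk libraries cannot tell less Ywhaq RNA per cell from fewer cells that express it, and this holds for each member.

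Ywhae, the epsilon isoform and by far the most abundant member, lies at chr11:75732869-75765845 on the plus strand. It was counted 7452 and 9472 times in shControl and 2725 and 5814 times in shLmna, or 2308, 2536, 1078 and 1584 CPM in the same order. Both shLmna libraries lay under both shControl libraries, shLmna 1 farther than shLmna 2. The group means were 2422 ± 161 and 1331 ± 358 CPM, and the log2 fold change of -0.86 ± 0.163 passed the test (adjusted p = 0.00709) but not the limit of 1 for a call. Without shLmna 1 the value was -0.61 and the adjusted p 0.0612, the remaining shLmna library being assumed to vary like the shControl pair.

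Ywhah, the eta isoform, lies at chr5:33018816-33027966 on the plus strand. It was counted 491 and 637 times in shControl and 85 and 306 times in shLmna, which is 152 and 171 CPM against 33.6 and 83.4 CPM. The shLmna libraries differed from each other by more than the shControl libraries did, and both were lower. The log2 fold change was -1.42 ± 0.296 (adjusted p = 0.0106). The call did not hold in DESeq2 (-1.46, adjusted p = 0.132). The value ran from -2.25 without shLmna 2 to -0.95 without shLmna 1, where the fold limit was not met. It was -0.69 in the batch-corrected values, whose narrower scale does not compare with that limit.

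Ywhaz, the zeta isoform, lies at chr15:36770770-36796929 on the minus strand and moved the other way. Counts of 530 and 626 in shControl and 752 and 1058 in shLmna gave 164 and 168 CPM against 297 and 288 CPM. Libraries of a group lay close together and the groups were well apart, at 166 ± 2.43 and 293 ± 6.48 CPM. The level was 1.76-fold higher in shLmna, a log2 fold change of 0.82 ± 0.118 (adjusted p = 0.00149), and it kept its direction and its side of the threshold under all 13 alternatives, being lowest in the batch-corrected values at 0.46.

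Ywhag, the gamma isoform and nearest paralog of Ywhah, lies at chr5:135908409-135934616 on the minus strand. It stood at 177 and 132 CPM in shControl and 204 and 196 CPM in shLmna, from 572, 493, 516 and 720 counts. Both shLmna libraries were higher than either shControl library, and shControl 2 was the lowest. The log2 fold change was 0.37 ± 0.150 with a 95% interval from 0.04 to 0.71, and it did not pass adjustment over all genes (adjusted p = 0.126). Without shControl 1 the value was 0.60 and passed (adjusted p = 0.00232), and without shControl 2 it was 0.17 (adjusted p = 0.503).

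Ywhab, the beta isoform, lies at chr2:163994960-164018588 on the plus strand, and was counted 1632 and 2041 times in shControl against 1303 and 2192 times in shLmna. The levels were 505, 546, 515 and 597 CPM, so that shLmna 1 fell between the shControl libraries. The log2 fold change was 0.08 ± 0.126 (adjusted p = 0.713), with a 95% interval from -0.20 to 0.36, and it turned to -0.016 without shLmna 2.

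Sfn, the sigma isoform, a gene of a single exon at chr4:133600556-133602168 on the minus strand, was the least abundant member. It was counted 20 and 24 times in shControl and 7 and 9 times in shLmna, or 6.19, 6.43, 2.77 and 2.45 CPM. The groups did not overlap, but with so few counts the log2 fold change of -1.27 ± 0.414 had a 95% interval from -2.20 to -0.35 and did not pass (adjusted p = 0.0689).

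**Figure D2:**
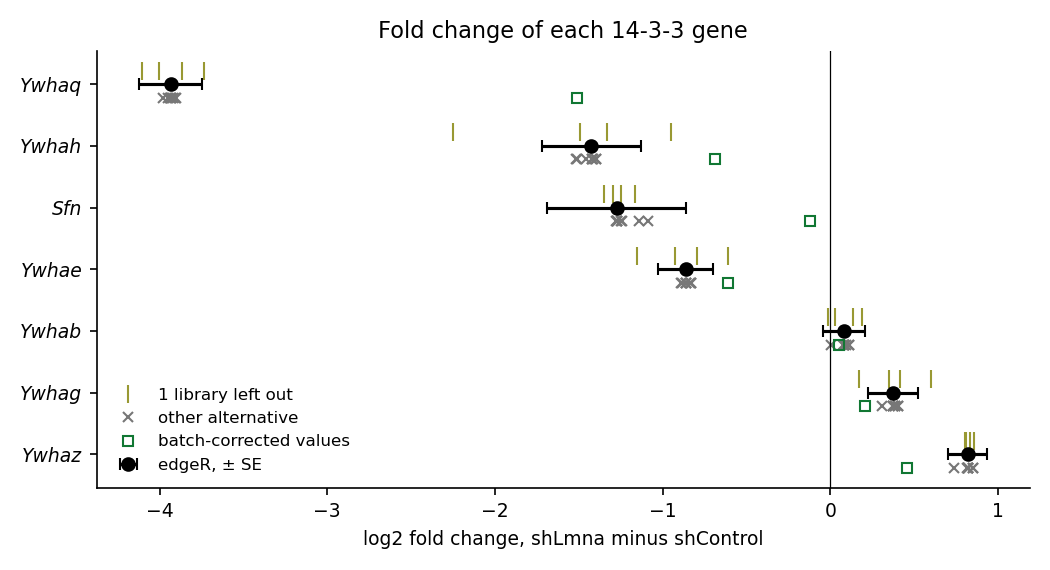
Log2 fold change of each 14-3-3 gene, shLmna minus shControl, with the edgeR value ± SE (black), the 4 fits with 1 library left out (bars), the batch-corrected values (green squares) and the other alternatives (crosses). Ywhaq lies at -3.93, Ywhaz at 0.82, and the batch-corrected values, which have a narrower scale, lie nearer to 0 than the edgeR values for each gene.

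The make-up of the family's transcripts differed between the groups. Summed over the 7 genes, the level was 3515 and 3820 CPM in shControl and 2145 and 2767 CPM in shLmna, lower in both knockdown libraries, with means of 3668 ± 216 and 2456 ± 440 CPM, and thus fell by 33.0%. Most of this lay in Ywhae: without it the sums were 1207 and 1284 against 1067 and 1183 CPM, and their mean fell by 9.65%. No test is given for these sums, since 1 of their members was chosen for its fall.

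Ywhae made up 66.0 ± 0.505% of the summed CPM in shControl and 53.7 ± 4.95% in shLmna. The share of Ywhaq went from 6.29 ± 0.780% to 0.617 ± 0.0655% and that of Ywhah from 4.40 ± 0.0972% to 2.29 ± 1.02%. Against this, Ywhab took 14.3 ± 0.0549% and 22.8 ± 1.73%, Ywhaz 4.53 ± 0.200% and 12.1 ± 2.44%, and Ywhag 4.25 ± 1.12% and 8.30 ± 1.71%. Since shares sum to a fixed total, the larger share of Ywhab does not mean a higher level of it.

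**Figure D3:**
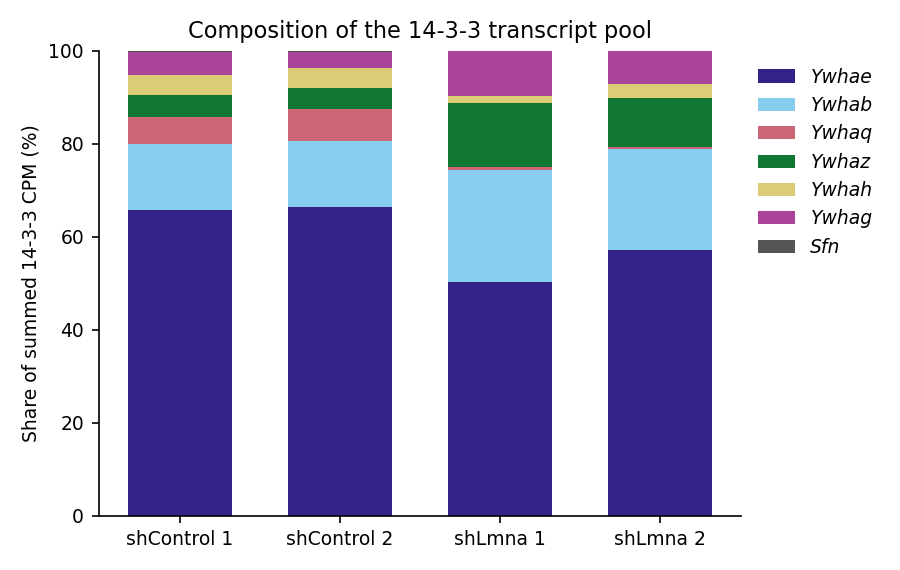
Share of the summed 14-3-3 CPM (%) taken by each gene in each library, stacked from 0 to 100%. The Ywhaq band is 6.29% on average in shControl and 0.617% in shLmna, and the Ywhaz and Ywhag bands are wider in both shLmna libraries.

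Ratios within a library do not depend on its scaling. Ywhaq exceeded Ywhaz in shControl, at 1.23 and 1.56 Ywhaq counts for each Ywhaz count, whereas in shLmna Ywhaz exceeded Ywhaq 20.9 and 18.2 times. Ywhae was counted 4.57 and 4.64 times as often as Ywhab in shControl and 2.09 and 2.65 times in shLmna. For the close pair Ywhah and Ywhag the ratio of Ywhah to Ywhag was 0.858 and 1.29 in shControl and 0.165 and 0.425 in shLmna. Each of these 3 ratios was lower in both knockdown libraries than in either control library.

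By level, the order in shControl was Ywhae, Ywhab and Ywhaq, then Ywhaz, Ywhah and Ywhag, whose libraries overlapped so that their order is not resolved, then Sfn. In shLmna the order was Ywhae, Ywhab, Ywhaz, Ywhag, Ywhah, Ywhaq and Sfn, with no overlap between neighbours, and Ywhaq thus went from the third place to the sixth. Beside the lower level of Ywhaq, Ywhab, its nearest paralog, did not pass the test and Ywhaz rose. Ywhah fell, and its nearest paralog Ywhag, with a value of 0.37, did not pass.

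The share of genes called differed with the base composition of the counted 3′ end, so this is given for each member. The last 1000 transcript bases held 39.3% G or C in Ywhaq, 38.4% in Ywhae, 41.4% in Ywhab, 42.2% in Ywhaz, 43.0% in Ywhah, 45.7% in Ywhag and 59.6% in Sfn. Among the 635 tested genes between 38% and 40%, which hold Ywhaq and Ywhae, 8.35% were called lower and 3.62% higher, whereas among the 783 genes between 44% and 46%, with Ywhag, these were 1.28% and 1.40%. Between them lay the 771 genes from 40% to 42%, with Ywhab, at 4.15% in each direction, and the 807 genes from 42% to 44%, with Ywhah and Ywhaz, at 3.22% lower and 2.35% higher. In the 327 genes from 58% to 60%, with Sfn, 2.45% were called lower and 0.306% higher. The median log2 fold change varied little over the bins from 38% to 46%, between 0.04 and 0.09, and was -0.14 in the bin of Sfn. With fold changes corrected for this composition Ywhaq stood at -3.98, Ywhae at -0.88, Ywhah at -1.51 and Ywhaz at 0.74. The correction follows the middle of the values at each GC content, so it does not address the difference in the share of genes called.

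**Figure D4:**
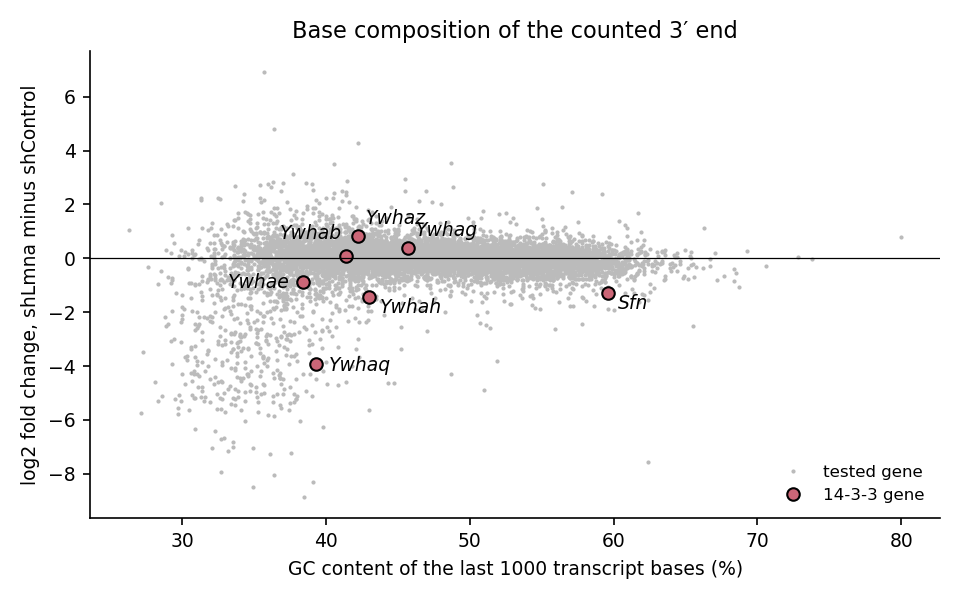
Log2 fold change, shLmna minus shControl, against the GC content of the last 1000 transcript bases (%), for tested genes (grey) and the 14-3-3 genes (red, named). Grey points below -3 lie mostly at low GC content, and Ywhaq, at 39.3%, lies at -3.93.

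The promoters of Ywhaq, Ywhae and Ywhah are shown because these are the members described above as lower, a choice that rests on the outcome. Each is the 300 bases around the start of the RefSeq transcript on GRCm38.p6, most of them upstream of it. For Ywhaq the gene bounds given above come from a longer GENCODE transcript, whose start lies inside this window. By that start most of the window is downstream. Capitals mark 4 motifs searched on both strands, the CCAAT box (CCAAT or ATTGG), the GC box (GGGCGG or CCGCCC), the cyclic AMP response element (TGACGTCA) and the TATA box (TATAAA or TTTATA). The table used had a promoter for 5 members (Ywhaq, Ywhae, Ywhah, Ywhag and Sfn).
Ywhaq, chr12:21417387-21417686, minus strand: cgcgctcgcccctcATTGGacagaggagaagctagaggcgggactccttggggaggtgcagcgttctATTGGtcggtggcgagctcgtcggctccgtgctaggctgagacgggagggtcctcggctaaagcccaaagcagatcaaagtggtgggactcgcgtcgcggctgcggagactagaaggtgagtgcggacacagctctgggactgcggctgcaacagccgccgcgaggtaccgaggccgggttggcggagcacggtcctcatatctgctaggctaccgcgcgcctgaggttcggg
Ywhae, chr11:75732637-75732936, plus strand: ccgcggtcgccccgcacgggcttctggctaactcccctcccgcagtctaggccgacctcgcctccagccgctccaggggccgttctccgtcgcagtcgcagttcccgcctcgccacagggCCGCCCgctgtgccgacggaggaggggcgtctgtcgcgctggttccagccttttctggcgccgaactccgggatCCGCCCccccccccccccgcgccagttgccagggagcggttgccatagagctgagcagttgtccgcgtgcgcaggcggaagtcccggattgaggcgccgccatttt
Ywhah, chr5:33018566-33018865, plus strand: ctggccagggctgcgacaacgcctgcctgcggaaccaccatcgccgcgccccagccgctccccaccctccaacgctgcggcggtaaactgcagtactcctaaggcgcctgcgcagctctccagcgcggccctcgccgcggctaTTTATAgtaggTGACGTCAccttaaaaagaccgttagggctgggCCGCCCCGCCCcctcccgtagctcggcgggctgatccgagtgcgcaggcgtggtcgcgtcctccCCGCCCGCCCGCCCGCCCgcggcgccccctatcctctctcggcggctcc

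No motif was found in all 3 windows. Ywhaq held 2 CCAAT boxes and none of the others, and the later box lies inside the gene bounds given above. Ywhae held 2 GC boxes, and Ywhah 6 GC boxes in separate runs, overlapping within each run, with 1 cyclic AMP response element and 1 TATA box. Of the other members in the table, Ywhag held 1 CCAAT box and 4 GC boxes, and Sfn 1 CCAAT box. Of 32851 promoters of the same length 37.4% held a CCAAT box, 35.7% a GC box, 1.79% the response element and 13.6% a TATA box. GC content was 65.3% in Ywhaq and 71.7% in both Ywhae and Ywhah, 61.3% in Ywhag and lowest in Sfn, all above the median of 52.7% over all promoters. A match is a run of letters and not a shown binding site.

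The genes next to Ywhaq had values near or above 0, and none passed with all 4 libraries in edgeR. On the side of lower coordinates the nearest tested genes were Iah1, 66.5 kb away between 3′ ends, Adam17, which encodes a sheddase of membrane proteins (66.8 kb), and Cpsf3, which encodes the nuclease that cuts pre-mRNA before polyadenylation (75.3 kb). Their log2 fold changes were 0.49 (adjusted p = 0.0773, unadjusted p in this edgeR fit 0.0143), 0.08 (adjusted p = 0.770) and 0.31 (adjusted p = 0.243). On the other side the nearest tested genes lay 3168 to 3574 kb away, Taf1b at 0.39, the ribonucleotide reductase gene Rrm2 at -0.07 and Mboat2 at 0.35 (adjusted p from 0.284 to 0.801). In limma on the batch-corrected values Iah1 (0.18) and Cpsf3 (0.16) passed, where 17.2% of all genes were higher at an adjusted p under 0.05. Without shControl 1 the edgeR value of Cpsf3 was 0.54.

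The tested genes whose log2 CPM ran most like that of Ywhaq over the 4 libraries, by the root mean square difference of centred values, were Rnf115 (0.0820), Abhd17b (0.115), Yy1 (0.116), Tmem56 (0.135) and Ubr3 (0.140). Rnf115, which encodes a ubiquitin ligase, was counted 104 and 145 times in shControl and 4 and 8 times in shLmna. Yy1, which encodes a zinc finger transcription factor, was counted 182 and 307 times against 8 and 14 times. Abhd17b, the gene of a depalmitoylating enzyme, had 52 and 88 against 2 and 4 counts, Tmem56 22 and 43 against 0 and 0, and Ubr3, another ubiquitin ligase gene, 39 and 51 against 1 and 1. All were scarcer than Ywhaq, and since they were picked for this pattern no test is given. The log2 CPM held a prior count of 2, which lessens differences at low counts. In edgeR the log2 fold changes ran from -4.18 for Rnf115 to -5.16 for Ubr3 and -7.93 for Tmem56, beside -3.93 for Ywhaq.

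Proteins that work with 14-3-3 were then followed through lists of their genes: clients, kinases that phosphorylate the bound sites, phosphatases that remove that phosphate, and genes that act on the 14-3-3 proteins or on Sfn. Most genes of these lists did not pass the test. Of 41 client genes tested, 3 were lower and 1 higher at an adjusted p under 0.05, with a median log2 fold change of -0.09 beside -0.00107 over all tested genes. Of 33 site kinases 2 were lower and 1 higher (median 0.10), of 16 phosphatase genes 1 was lower and 1 higher (median 0.06), and of 6 regulators 1 was lower (median 0.22). None of the regulators was higher in edgeR or in DESeq2, and none at an unadjusted p under 0.05 in edgeR. These counts are beside 9.74% of all genes lower and 5.48% higher, and they moved with the tool and with single libraries. On the narrower scale of the batch-corrected values the differences of the genes that passed were smaller, such as -0.95 for Zfp36l1, -0.33 for Wee1, -1.28 for Ppp2ca and 0.37 for Prkaa1.

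Among clients, Zfp36l1, which encodes a protein that speeds decay of messengers with AU-rich elements, was counted 200 and 206 times in shControl and 6 and 7 times in shLmna. Its log2 fold change was -4.77 ± 0.275 (adjusted p = 8.07e-06), and both shLmna libraries were low. Wee1, the kinase that holds CDK1 inactive, fell from 86 and 101 to 17 and 44 counts (-1.48 ± 0.281, adjusted p = 0.00731). Hdac7, a class IIa histone deacetylase, fell from 56 and 73 to 18 and 31 counts (-1.23 ± 0.262, adjusted p = 0.0121), a call lost in DESeq2 (adjusted p = 0.110) and without either shLmna library (0.0882 and 0.0709). Cdc25a, the phosphatase that opposes Wee1, rose from 112 to 158 CPM (0.49 ± 0.124, adjusted p = 0.0251) but did not pass in DESeq2 (adjusted p = 0.0665) or without shControl 2, shLmna 1 or shLmna 2 (0.0524, 0.112 and 0.188).

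Cdc25b, Bad and Yap1, long-studied clients, did not pass. The log2 fold change was 0.24 ± 0.140 for Cdc25b, 0.17 ± 0.183 for Bad and 0.17 ± 0.141 for Yap1, with adjusted p-values from 0.299 to 0.580. Cdc25b passed in limma on the batch-corrected values (0.11, adjusted p = 0.0223), where 17.2% of all genes were higher at an adjusted p under 0.05. Bad turned to -0.094 without shLmna 1. Mitf, the melanocyte master transcription factor and a client when phosphorylated, stood at 137 and 133 CPM in shControl and 99.7 and 109 CPM in shLmna, lower in both knockdown libraries. Its log2 fold change was -0.37 ± 0.125 (adjusted p = 0.0804), and it passed after correction for GC content (-0.44, adjusted p = 0.0390). It also passed in limma on the batch-corrected values (-0.18, adjusted p = 0.0139), where 19.1% of all genes were lower at an adjusted p under 0.05. Foxo3 had 1 count in shControl 2 and none in the other libraries, too few to test.

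Of the kinases, Prkaa1, a catalytic subunit of AMPK, rose from 66 and 100 to 146 and 191 counts (1.21 ± 0.195, adjusted p = 0.00292). Pak2, a p21-activated kinase, fell from 71 and 59 to 15 and 32 counts (-1.33 ± 0.303, adjusted p = 0.0166), and Prkcz, an atypical protein kinase C, from 10 and 23 to 2 and 3 counts (-2.49 ± 0.644, adjusted p = 0.0286). Neither fall passed in DESeq2 (adjusted p = 0.0856 and 0.205) or without either shLmna library (Pak2 0.113 and 0.0656, Prkcz 0.167 and 0.214), and Prkcz did not pass without shControl 2 (0.205). Akt1, the kinase of many 14-3-3 sites, was abundant, at 1766 and 1447 CPM on average in shControl and shLmna, and its log2 fold change of -0.29 ± 0.148 did not pass (adjusted p = 0.229) unless shControl 1 was left out (-0.50, adjusted p = 0.00241).

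Ppp2ca, a catalytic subunit of protein phosphatase 2A, was counted 713 and 1068 times in shControl and 55 and 196 times in shLmna. Both knockdown libraries were far lower, at a log2 fold change of -2.70 ± 0.297 (adjusted p = 3.12e-04). Ppp3r1, the regulatory subunit of calcineurin, rose from 195 and 282 to 334 and 386 counts (0.79 ± 0.165, adjusted p = 0.0106) and did not pass without shLmna 1 (adjusted p = 0.113). Csnk1a1, a casein kinase that phosphorylates 14-3-3 proteins, fell from 214 and 344 to 39 and 164 counts (-1.34 ± 0.350, adjusted p = 0.0291), a call lost in DESeq2 (adjusted p = 0.310) and without shLmna 1 (-0.82, adjusted p = 0.0955). Trp53, whose product induces Sfn, stood at 75.0 and 65.9 CPM on average, a difference that did not pass (adjusted p = 0.399).

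**Figure D5:**
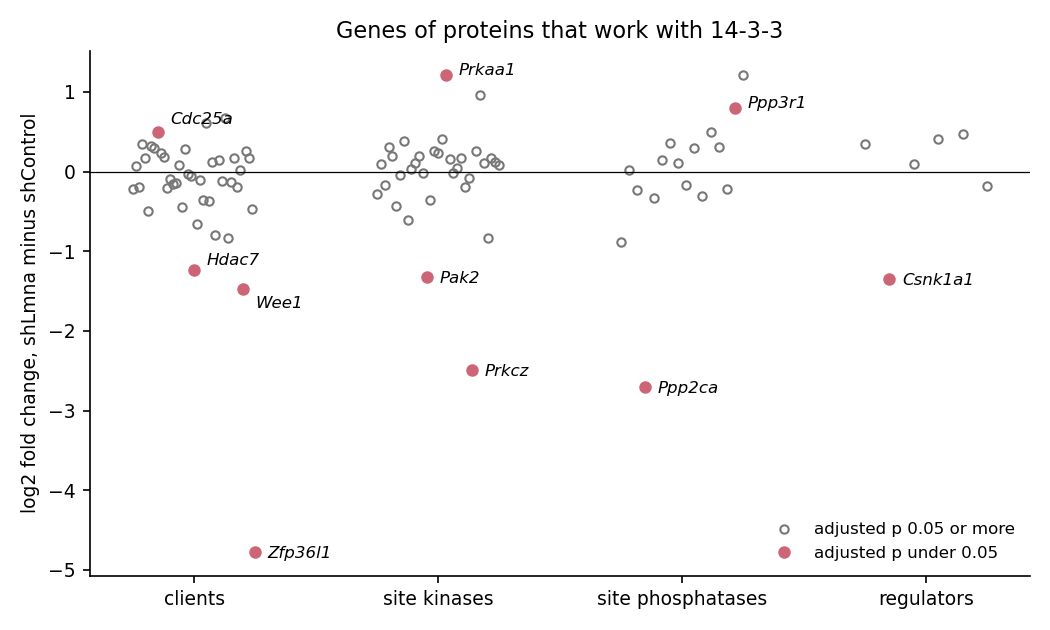
Log2 fold change, shLmna minus shControl, of tested genes in the 4 lists of proteins that work with 14-3-3, spread sideways for sight only. Filled points (named) have an adjusted p under 0.05 in edgeR, from Zfp36l1 at -4.77 to Prkaa1 at 1.21, and open points do not.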

How the data were processed

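Bulk MARS-seq libraries of B16F10 cells (2 shControl, 2 shLmna, grouped and numbered by their titles) were run by the authors through UTAP: trimming with Cutadapt, alignment with STAR 2.4.2a to mm10, and HTSeq counting over the 1000 bases at the 3′ end of each RefSeq gene plus 100 downstream, with UMI duplicates marked. The authors deposited raw counts per gene symbol, used for every main test, and whether duplicates had been collapsed in them is not stated. They also deposited a normalized signal, the count divided by a size factor, together with p-values and adjusted p-values of their own comparison, which were not used. Another deposited table held log2 values corrected with ComBat for batches that were not named. Their range was narrower than that of the log2 counts, so differences in them are not comparable in size with edgeR log2 fold changes. Counts were tested with edgeR 4.0.16 (R 4.3.3): TMM scaling, the default filterByExpr filter, a quasi-likelihood F test with group as its one term, two-sided, and Benjamini-Hochberg adjustment over 9150 genes. SE is the log2 fold change divided by the square root of F, and CPM is given as mean ± SD over 2 libraries.

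Signal values were whole multiples of 1 step in 100% of genes (tolerance 0.01), and the counts recovered from them were an alternative, with calls for 539 lower and 160 higher genes against 538 and 161. Replicates differed by more than sampling noise (chi-square per degree of freedom 7.49 and 4.15), so none was taken for a library deposited again, which does not show that they are separate cultures. The other alternatives were DESeq2 1.42.0, limma 3.58.1 on the batch-corrected values, other scalings, no filter, a replicate block, a correction for 3′ GC content by lowess (span 0.3) and leaving out each library. The edgeR steps were tested on simulated data.

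Sequences and coordinates came from GENCODE M21 and RefSeq promoters on GRCm38, where 24018 of 24419 distinct symbols matched a transcript. Proteins were translated from the annotated coding sequences and aligned pairwise. Named are all members, Lmna, genes of the 4 context lists with an adjusted p under 0.05 (at most 8 a list), Cdc25b, Bad, Yap1, Mitf, Foxo3 and Akt1, the 3 nearest tested genes on each side of Ywhaq and the 5 most like it. A client gene that the rule also named is not reported here. Trp53 and Sox10 were added after their values were seen. Members and lists were chosen with earlier results of these data known.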

Additional observations from a re-analysis of the deposited data

How the results depend on the processing

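Ywhaz and Lmna kept their direction and their side of the threshold under all 13 alternatives. The value of Ywhaq, described with no test, ran from -3.98 to -1.51, and from -4.10 to -3.74 when 1 library was left out. The -1.51 is on the narrower scale of the batch-corrected values. Ywhae ran from -1.15 to -0.61 with 1 library left out, Ywhah from -2.25 to -0.95, Ywhag from 0.17 to 0.60, Ywhab from -0.016 to 0.19 and Sfn from -1.35 to -1.16. Ywhah did not pass in DESeq2 (-1.46, adjusted p = 0.132). In limma on the batch-corrected values Ywhag (0.21, adjusted p = 0.0352) and Sfn (-0.12, adjusted p = 0.0212) passed. In that setting 19.1% of 10417 genes were lower and 17.2% higher at an adjusted p under 0.05. The limma fit had group as its only term, so its p-values do not allow for the batch correction made before it. Same-numbered libraries did not deviate together (correlation 0.0129 across genes, which are not independent replicates), so the numbers are not shown to pair them. A fit with the replicate block called 605 lower and 209 higher genes, and Ywhag (0.39, adjusted p = 0.0235) and Mitf (-0.37, adjusted p = 0.0425) passed in it. Of the 6 members other than Ywhaq, 1 was lower at an adjusted p under 0.05 in DESeq2 and 3 in the batch-corrected values. At the same threshold 2 were higher under the block and in the batch-corrected values. Bad (-0.094 to 0.43, lowest without shLmna 1) and Rrm2 (-0.22 to 0.10, with 0.0098 without shControl 2) changed sign with 1 library left out. The causes were not tested.

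Over all genes, lower calls numbered 387 to 744 with 1 library left out, and 28 in limma on the batch-corrected values. Higher calls numbered 60 to 232 with 1 library left out, 74 in DESeq2 and 2 in limma. The fold limit is not comparable between limma on the batch-corrected values, whose scale is narrower, and the other settings. Another scaling moved the median of all genes by 0.03 at most. At an adjusted p under 0.05 alone, the measure of the list counts that follow, limma had 19.1% of its 10417 genes lower and 17.2% higher. Client genes that were lower numbered 12 in limma. Higher clients numbered 0 in DESeq2, 2 with library totals, 2 with no filter, 3 with the replicate block, 6 in limma and 0 to 3 with 1 library left out. Lower site kinases numbered 0 in DESeq2, 6 in limma, 1 with recovered counts and 0 to 4 with 1 library left out, and higher ones 3 with upper quartile scaling, library totals, no filter, the block or recovered counts, 2 with GC correction, 4 in limma and 1 to 2 with 1 library left out. Lower phosphatases numbered 2 with no filter, 4 in limma and 1 to 3 with 1 library left out, and higher ones 2 with no filter, the block or GC correction, 4 in limma and 0 to 2 with 1 library left out. Lower regulators numbered 0 in DESeq2 and 0 to 1 with 1 library left out. Depth was least for Sfn, with 7 to 24 counts a library.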
